A study of Homo sapiens with 23 samples.

Results

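The regions described here carried peaks of both H3K9me3 and H3K27me3, histone marks of silent chromatin, in NCI-H23 cells. NCI-H23 is an established non-small cell lung cancer line. For each mark, the parts of the genome called in both replicate libraries were taken as intervals, which gave 169394 intervals for H3K9me3 and 170663 for H3K27me3. A double-marked region is an H3K9me3 interval that shared at least 1 bp with an H3K27me3 interval and touched no peak of H3K36me3 in either library. The regions were thus chosen by the peak calls of these 3 marks, and what those calls hold is given below as description, without a test. There were 41006 such regions, 24.2% of the H3K9me3 intervals, and they covered 27.5 Mb. They were compared with 88279 H3K9me3-only intervals, which had no H3K27me3 or H3K36me3 peak in any library, and with 98266 H3K27me3-only intervals, which had no H3K9me3 or H3K36me3 peak in any library.

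H3K9me3 is placed by SETDB1 and the SUV39H enzymes, is bound by HP1 proteins, and is known for repeats, centromere-flanking heterochromatin and clusters of zinc finger genes. H3K27me3 is placed by the Polycomb repressive complex PRC2 and is known for silenced developmental genes and broad facultative heterochromatin. Both pathways are usually described as working in separate compartments, while H3K36me3 marks the bodies of transcribed genes and hinders PRC2 on the same histone tail. Peak lists from many cells show that both marks were called at a place, but whether they sat on the same nucleosome, allele or cell cannot be told apart.

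Chromatin immunoprecipitation with sequencing was done for 11 targets with 2 libraries each, and the peak lists numbered 22, 1 for every library; a further sample labelled as input has no list and was not analysed here. The labels mention the BET inhibitor JQ1 and its solvent in a shared protocol without saying which library received which, and give no treatment for a library. Nor do they say whether replicates were separate cultures. The lists hold no read numbers, so depth is unknown; they ranged from 21580 to 277462 peaks. An exact two-sided test of 2 libraries against 2 cannot give a p below 0.333, so values are given for both libraries without a test, and the spread between libraries serves as the error. No sequence or gene is given for a region, since the gene tables at hand use another genome build than the hg19 named by the submitters.

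Double-marked regions were wider than H3K9me3-only intervals. Their median width was 448 bp (25th to 75th percentile 288 to 794 bp), against 328 bp (242 to 515 bp) for H3K9me3-only and 292 bp (192 to 417 bp) for H3K27me3-only. Wide intervals meet another list more often, so the way the regions were chosen touches width, and this difference is a description. The widths of the authors' whole H3K9me3 peaks on the regions followed the same order in each library. In replicate 1 the medians were 579 bp on double-marked regions and 450 bp on H3K9me3-only intervals, and in replicate 2 they were 804 and 609 bp. Of H3K9me3 intervals under 500 bp, 20.2% were double-marked, and of those of 2000 bp or more, 38.2%. H3K27me3 covered a median of 83.1% of a double-marked region, and 34.2% of the regions were covered completely.

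At the edge of the rule, 4887 regions (11.9%) shared at most 100 bp with H3K27me3, and 2228 further H3K9me3 intervals without H3K36me3 missed an H3K27me3 interval by at most 100 bp. Their median fold enrichment of H3K9me3 over the peak caller's local background was 3.47 just inside and 3.55 just outside in replicate 1, and 3.45 and 3.53 in replicate 2. Intervals on either side of the threshold were thus alike in H3K9me3 strength, and smaller than the typical region, with median widths of 202 and 269 bp.

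Both marks were somewhat stronger where they met. The median H3K9me3 fold enrichment was 3.97 on double-marked and 3.64 on H3K9me3-only intervals in replicate 1, and 3.909 and 3.604 in replicate 2. For H3K27me3 it was 4.02 on double-marked and 3.44 on H3K27me3-only intervals in replicate 1, and 4.05 and 3.39 in replicate 2. These folds are the authors' values, compared only within a list, and the ranges overlapped widely. A double-marked region could touch several H3K27me3 peaks of a list, and the strongest was taken. An H3K27me3-only interval lies within 1 peak of each list, which favours higher H3K27me3 folds on double-marked regions. The rule also used these calls, so the difference in strength is a description. The share of intervals that were double-marked grew with H3K9me3 strength. Ranked by −log10 q in replicate 1, it was 19.02% in the weakest 25% of the H3K9me3 intervals and 38.6% in the strongest 10%. Ranked in replicate 2, it was 19.5% and 34.7%.

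**Figure D1:**
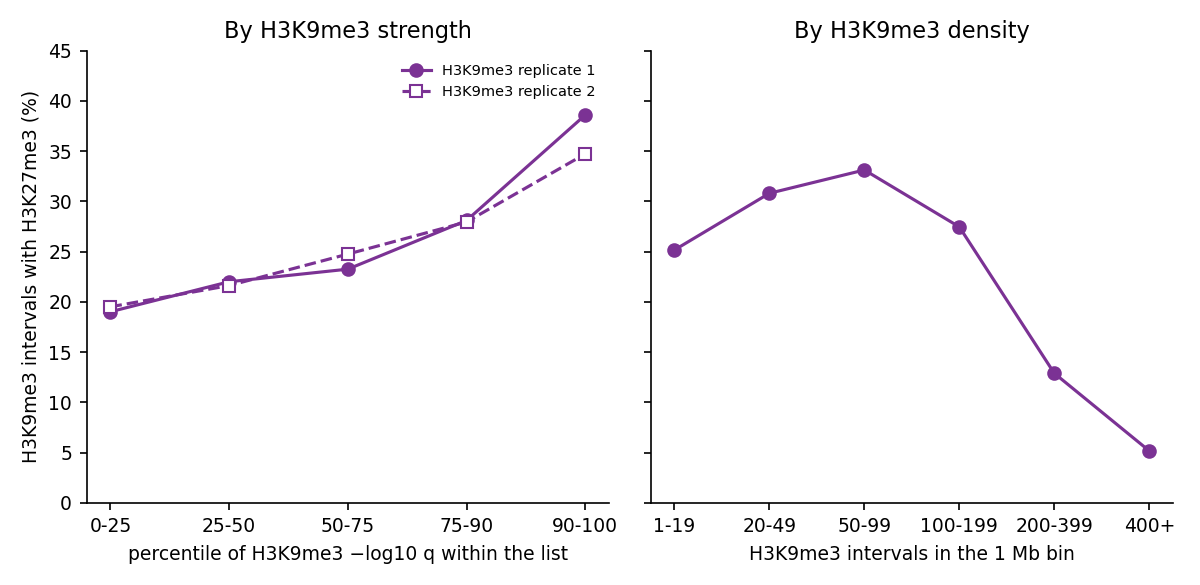
Share of H3K9me3 intervals that were double-marked, by percentile of H3K9me3 −log10 q within each list (left, 1 line per library) and by the number of H3K9me3 intervals in the 1 Mb bin (right). The share grew from 19.02% and 19.5% to 38.6% and 34.7% with strength, and was 5.17% in bins of 400 or more intervals.

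The 5 regions named by rank, each high in all 4 lists of the repressive marks, were 1830 to 6777 bp wide and nearly filled by H3K27me3. The first lay at chr11:69883100-69889876, and all of its 6777 bp were covered by H3K27me3. Its H3K9me3 fold enrichment was 12.2 and 9.32 in replicates 1 and 2, and its H3K27me3 fold enrichment 12.8 and 8.90. The second, at chr8:144749061-144752003, had an H3K9me3 fold of 9.84 and 16.04 and an H3K27me3 fold of 11.1 and 9.88. Neither had a peak in any of the 16 lists of active marks and BRD2. The others lay at chr5:43333456-43337940, chr6:76275427-76277256 and chr5:41204703-41206711, with H3K27me3 over 4118 of 4485 bp, over all 1830 bp and over all 2009 bp. The region on chromosome 6 had a BRD2 peak in replicate 1 alone (fold 3.01), the first on chromosome 5 an H4K8ac peak in 1 list, and the second on chromosome 5 had none.

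The widest regions were of another kind, since they were long H3K9me3 blocks that H3K27me3 only touched. They lay at chr5:46224743-46259416, chr19:24510606-24543858, chr7:61867438-61899498, chr12:34691456-34717536 and chr8:47038741-47064633. The first was 34674 bp wide, of which H3K27me3 covered 115 bp, and the second 33253 bp wide with 193 bp covered. In the other three H3K27me3 covered 599 of 32061, 2570 of 26081 and 998 of 25893 bp. H3K9me3 fold enrichment was 6.92 and 7.34 in replicates 1 and 2 at the first region, and that of H3K27me3 was 2.88 and 3.01. So the widest regions met the rule by a small part of their length, while H3K27me3 covered most or all of the regions named by rank. The widest regions were not free of peaks of active marks and BRD2. Peaks were not filtered here for artefact-prone sequence, and whether these peaks are artefacts was not tested. The one at chr8:47038741-47064633 had peaks in 8 of the 16 lists, with H4K5acK8ac, H4K5ac and H4K12ac in both libraries. Each of the others had a peak in 1 list, of H4K12ac on chromosome 7 and of BRD2 on the rest.

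Along the genome the double-marked regions were clustered, but less than H3K9me3-only intervals. Of 2858 bins of 1 Mb that held any H3K9me3 interval, 2487 held a double-marked region and 2810 an H3K9me3-only interval. The fullest 14.7% of the bins held 50% of the double-marked regions, whereas 6.96% of the bins held 50% of the H3K9me3-only intervals. For all H3K9me3 intervals together it was 14.9% of the bins, so by this measure alone the double-marked regions were about as concentrated as H3K9me3 intervals in general. The index of overdispersion, which is the variance of the counts per bin minus their mean, divided by the squared mean, does not grow with the number of intervals. It was lowest for double-marked regions, at 1.51, against 4.81 for H3K9me3-only, 2.54 for H3K27me3-only and 2.06 for all H3K9me3 intervals. Built from the lists of 1 replicate alone, it was 1.34 and 1.31 for double-marked and 2.66 and 2.09 for H3K9me3-only intervals in replicates 1 and 2. The order was the same in both replicates, but the gap was smaller than with intervals called in both lists.

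**Figure D2:**
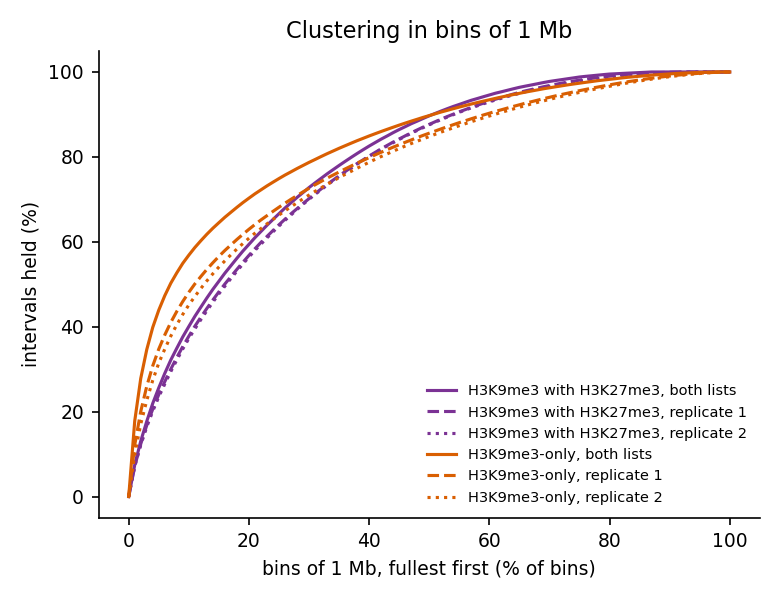
Share of intervals (y axis, %) held by the fullest bins of 1 Mb (x axis, % of bins), for double-marked (purple) and H3K9me3-only (orange) intervals called in both lists or in the lists of 1 replicate. In the fullest bins the orange lines rise above the purple lines; 6.96% of bins hold 50% of the H3K9me3-only intervals and 14.7% of bins 50% of the double-marked regions.

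In the densest H3K9me3 bins a small share of the intervals was double-marked. In bins with 50 to 99 H3K9me3 intervals, 33.1% of the intervals were double-marked, in the next class but one, from 200 to under 400, it was 12.9%, and in the 48 bins with 400 or more it was 5.17%. The number of regions there was not small, at 1427 in these 48 bins. Of the fullest bins of each class that together held 50% of it, 45 were shared, which is 10.7% of those for double-marked regions and 22.6% of those for H3K9me3-only intervals. Over 2276 bins with at least 20 H3K9me3 intervals, the double-marked share had a median of 26.1% and ran from 0% to 96.6%. It was above 50% in 468 of them, which held 41.4% of all double-marked regions.

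The bin with most double-marked regions was chr20:41000001-42000000, with 171 of them among 291 H3K9me3 intervals. The next, chr20:59000001-60000000, had 140 among 587. They were followed by chr8:136000001-137000000 with 138 among 208, chr18:73000001-74000000 with 129 among 288, and chr5:44000001-45000000 with 119 among 150. The bins on chromosomes 5 and 8 and the one with most regions were mostly double-marked, at 79.3%, 66.3% and 58.8%, while the next on chromosome 20 also held 312 H3K9me3-only intervals. By contrast, the fullest H3K9me3-only bins, chr22:34000001-35000000, chr10:132000001-133000000 and chr16:17000001-18000000, held 705, 687 and 682 H3K9me3-only intervals but 5, 7 and 3 double-marked regions.

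Chromosome 20 had the highest double-marked share of the autosomes and chromosome 22 the lowest. On chromosome 20, 40.8% of the H3K9me3 intervals were double-marked, and in the lists of replicates 1 and 2 alone the shares were 48.1% and 53.7%. On chromosome 22 these values were 7.48%, 10.7% and 13.8%, and on chromosome 19 they were 10.8%, 15.2% and 20.2%. The median over the 22 autosomes was 24.4%. The gap between chromosomes 20 and 22 was larger than that between replicates. Chromosome 19 is rich in zinc finger genes, and there 23.6% of the H3K9me3 intervals touched H3K36me3, which removes an interval from the regions by rule. On chromosome 22 this was 5.86% and on chromosome 20 it was 6.38%. Over all chromosomes the rule left out 210 of the 41216 H3K9me3 intervals that overlapped an H3K27me3 interval. Without this rule the double-marked share over the genome was 24.3%, against 24.2% with it. The X chromosome had a double-marked share of 15.8%.

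**Figure D3:**
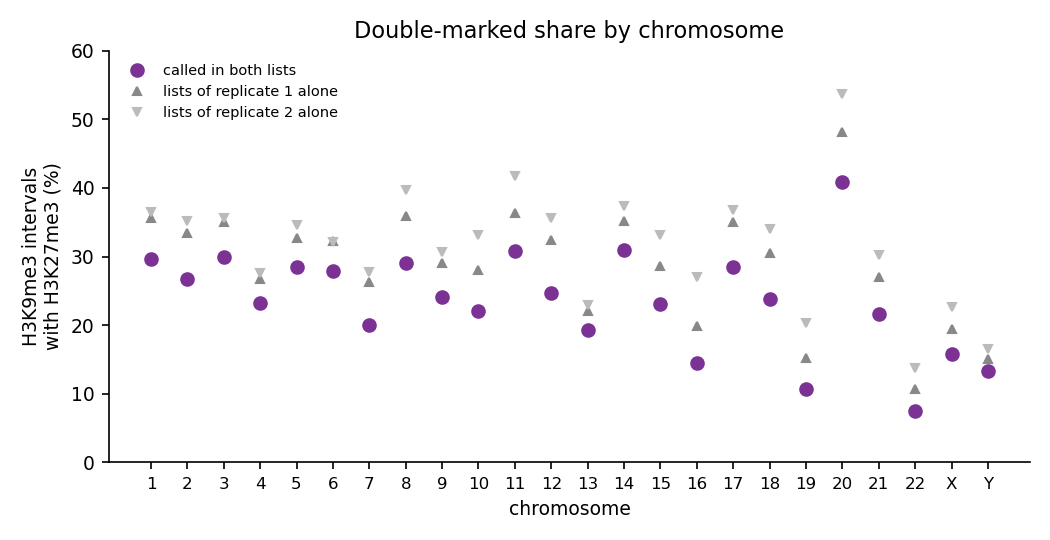
Share of H3K9me3 intervals that were double-marked (y axis, %) by chromosome, for intervals called in both lists (circles) and for the lists of each replicate alone (triangles). Chromosome 20 is highest with 40.8% and chromosome 22 lowest with 7.48%, and both replicates alone give the same extremes.

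Within the double-marked regions the summits of both marks lay about as close to each other as the summits of 1 mark in its replicates. For each region the strongest peak of each list was taken. The median distance between the H3K9me3 and H3K27me3 summits was 214, 203, 227 and 219 bp in the 4 combinations of libraries. Their mean was 215.75 bp and their SD 10.0 bp. The combinations share libraries and regions, so they are not independent and this SD is only a description. Between the replicates of H3K9me3 it was 195 bp and between those of H3K27me3 216 bp. The summits of different marks were thus 1.11 times as far apart as those of replicate H3K9me3 lists and 0.999 times as far as those of replicate H3K27me3 lists. The choice of overlapping intervals bounds these distances from above.

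The widest regions differed in this respect. In the 1692 regions of 2000 bp or more, the summits of different marks were 451.5 to 526 bp apart in the median, against 281.5 bp between H3K9me3 replicates and 367.5 bp between H3K27me3 replicates. In regions under 500 bp the ranges met: the distance was 191 to 217 bp between marks, 190 bp between H3K9me3 replicates and 209 bp between H3K27me3 replicates. The H3K9me3 summit of replicate 1 fell inside the region in 83.8% and that of replicate 2 in 69.1% of cases, while the H3K27me3 summits did so in 60.1% and 61.8%.

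**Figure D4:**
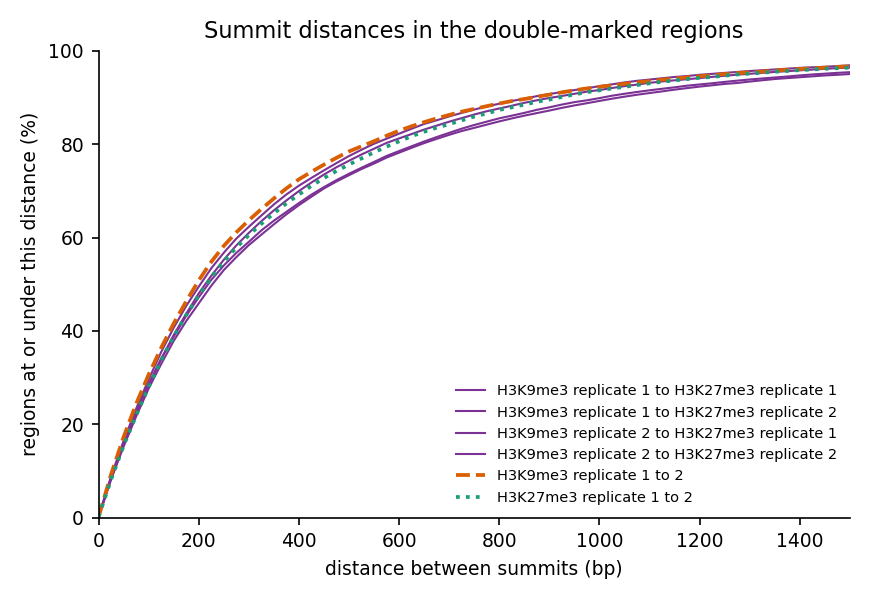
Cumulative share of double-marked regions (y axis, %) by the distance between summits (x axis, bp), for the 4 combinations of H3K9me3 with H3K27me3 lists (purple), the H3K9me3 replicates (orange, dashed) and the H3K27me3 replicates (green, dotted). The lines run close together, with medians of 195 to 227 bp.

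Active marks were rare on double-marked regions: 88.0% of them touched no peak in any of the 16 lists of H4K5acK8ac, H4K5ac, H4K8ac, H4K12ac, H3K27ac, H3K4me1, H3K4me3 and BRD2, against 90.8% of H3K9me3-only intervals. These lists played no part in choosing the regions. Against H3K9me3-only intervals, the targets split. H3K27ac, H4K5acK8ac, H4K5ac and H4K8ac were less frequent in both libraries, H4K12ac, H3K4me3 and BRD2 were more frequent in both libraries, and H3K4me1 was more frequent in 1 library and equal to within 0.01 percentage points in the other.

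**Figure D5:**
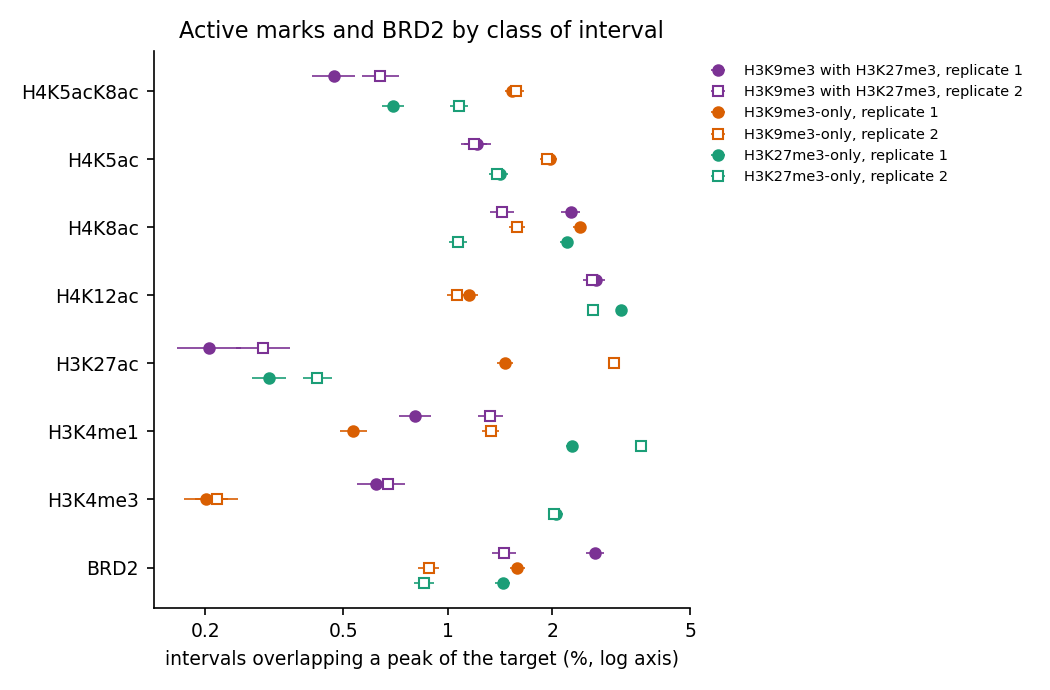
Share of intervals that overlapped a peak of each target (x axis, %, log axis) for double-marked (purple), H3K9me3-only (orange) and H3K27me3-only (green) intervals; filled circles are replicate 1, open squares replicate 2, and bars 95% Wilson intervals. H3K27ac lies lowest on double-marked regions (0.205% and 0.293%), and H3K4me3 lies between both single-mark classes.

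H3K27ac, the acetyl mark of active promoters and enhancers that occupies the same lysine as H3K27me3, had the lowest ratio of the double-marked to the H3K9me3-only share among the 8 targets in both libraries. In replicate 1 it was called at 84 double-marked regions, 0.205% (95% Wilson interval 0.166% to 0.254%), against 1.46% (1.39% to 1.55%) of H3K9me3-only and 1.77% of all H3K9me3 intervals. In replicate 2 it was called at 120 regions, 0.293% (0.245% to 0.350%), against 3.02% (2.91% to 3.14%) and 2.87%. Both lists had it at 61 regions, 0.149%, against 1.46% of all H3K9me3 intervals. The double-marked regions had 0.140 and 0.0968 times the share of the H3K9me3-only intervals, and the share was lower on 21 of 22 autosomes in replicate 1 and on 22 in replicate 2. Wilson intervals treat regions as independent, which neighbouring regions are not, and cover counting error only. On H3K27me3-only intervals, where the same lysine is methylated, H3K27ac was at 0.304% and 0.420%. The low level was therefore shared by both classes with H3K27me3, with a ratio of double-marked to H3K27me3-only of 0.673 and 0.696. The 48 bins with 400 or more H3K9me3 intervals were an exception: there each of the 8 targets was more frequent on double-marked than on H3K9me3-only intervals in both libraries. H3K27ac was there at 14 of 1427 double-marked regions (0.981%) and 0.224% of H3K9me3-only intervals in replicate 1, and at 0.911% and 0.376% in replicate 2.

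The doubly acetylated H4 tail, H4K5acK8ac, was also less frequent. It was called at 192 double-marked regions in replicate 1 (0.468%, against 1.54% of H3K9me3-only and 1.62% of all H3K9me3 intervals) and at 262 in replicate 2 (0.639%, against 1.57% and 1.70%). H4K5ac followed with 1.22% and 1.19% of double-marked regions, 1.97% and 1.94% of H3K9me3-only intervals, and 2.17% and 2.12% of all H3K9me3 intervals. The gap was small for H4K8ac, at 2.26% and 1.43% of double-marked regions against 2.40% and 1.59% of H3K9me3-only and 2.57% and 1.81% of all H3K9me3 intervals. In both lists, H4K5acK8ac was called at 126 double-marked regions (0.307%, against 1.20% of all H3K9me3 intervals), H4K5ac at 178 (0.434%, against 1.33%) and H4K8ac at 174 (0.424%, against 0.737%). In the bins with 400 or more H3K9me3 intervals the order was reversed for these acetyl marks too. There H4K5acK8ac was at 1.40% and 1.33% of double-marked and 0.329% and 0.362% of H3K9me3-only intervals, and H4K5ac at 1.40% and 0.841% against 0.252% and 0.305%. H4K8ac was there at 1.47% and 0.981% against 0.481% and 0.152%. For H4K8ac over all bins the libraries differed more from each other than the classes did. With only H3K9me3 and H3K27me3 peaks of a −log10 q of at least 5, the direction turned for H4K5ac and H4K8ac, with double-marked regions ahead by 0.0772 and 0.594 percentage points.

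H4K12ac, a mark of newly deposited as well as active histone H4, went the other way. It was called at 1096 double-marked regions in replicate 1, 2.67% (95% Wilson interval 2.52% to 2.83%), against 1.15% of H3K9me3-only and 1.83% of all H3K9me3 intervals. In replicate 2 it was called at 1067, 2.60% (2.45% to 2.76%), against 1.06% and 1.72%. The ratio to H3K9me3-only was 2.33 and 2.45. H3K27me3-only intervals had a similar share, 3.16% and 2.63%. These peaks were weak: the median −log10 q of H4K12ac peaks on double-marked regions was 2.11 and 1.72, against 2.55 and 2.32 over the whole lists. Among H4K12ac peaks that reached a −log10 q of 5, double-marked regions had a share of 0.207% and H3K9me3-only intervals one of 0.224% in replicate 1, and 0.195% and 0.172% in replicate 2, so the difference was not seen among these stronger calls. Of the regions with H4K12ac in replicate 1, 25.3% also had it in replicate 2. This left 277 regions with the mark in both (0.676%, against 0.373% of H3K9me3-only and 0.635% of all H3K9me3 intervals).

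H3K4me3, the mark of promoters, was the most reproducible of the active marks on these regions. It was called at 254 double-marked regions in replicate 1 (0.619%, 95% Wilson interval 0.548% to 0.700%) and at 275 in replicate 2 (0.671%, 0.596% to 0.754%). On H3K9me3-only intervals the shares were 0.201% and 0.215%, and over all H3K9me3 intervals 0.384% and 0.394%. The ratio to H3K9me3-only was 3.09 and 3.12, while H3K27me3-only intervals had more, 2.06% and 2.03%. Of the regions with H3K4me3 in replicate 1, 90.2% had it in replicate 2, and 229 had it in both (0.558%, against 0.343% of all H3K9me3 intervals). With peaks of a −log10 q of at least 5 the ratio was 2.82 and 2.89. With only the 10000 strongest peaks of each list, the difference in H3K4me3 shares, averaged over libraries, fell from 0.437 to 0.0227 percentage points. The SD between libraries was 0.0258 for the difference over all peaks, and none is given for the strongest peaks. The peaks themselves were low, with a median fold enrichment on double-marked regions of 16.2 and 12.2, against 50.004 and 35.96 on H3K9me3-only intervals and 61.6 and 67.4 over the whole lists.

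Most regions with H3K4me3 in both lists had no H3K27ac peak on the interval itself. H3K4me3 peaks on double-marked regions had median widths of 993 and 868 bp in replicates 1 and 2. They could reach beyond the interval, where H3K27ac was not counted. Of the 229 regions with H3K4me3 in both lists, 171 (74.7%) had H3K27ac in neither list, whereas on H3K9me3-only intervals this held for 54 of 158 (34.2%). Of these 229, H3K4me1 was called in both lists at 89 (38.9%), H4K12ac at 78 (34.1%), H4K5acK8ac at 74 (32.3%), H3K27ac at 39 (17.0%) and BRD2 at 14 (6.11%). On H3K9me3-only intervals with H3K4me3 in both lists, H3K27ac was at 50.6%, H4K5acK8ac at 61.4%, H4K12ac at 38.6% and BRD2 at 13.3%. H3K4me1 went the other way, with a lower share of 20.9% on these H3K9me3-only intervals. Among the double-marked regions, the share with H3K4me3 was higher where H3K27me3 was stronger. By H3K27me3 −log10 q in replicate 1, it was 0.426% in the weakest 25% and 1.21% in the strongest 25% of the regions for the H3K4me3 list of replicate 1, and 0.446% and 1.25% for that of replicate 2. Ranked by H3K27me3 replicate 2, these values were 0.363% and 1.28%, and 0.383% and 1.33%. This was not particular to H3K4me3 or to H3K27me3. By H3K27me3 replicate 1, the list of replicate 1 gave 0.457% and 1.63% for H3K4me1 and 1.85% and 4.27% for H4K12ac, and by H3K9me3 replicate 1 it gave 0.380% and 0.878% for H3K4me3. Width was not held equal in these comparisons, and its part was not tested. H3K27ac went the other way and was less frequent in the strongest than in the weakest 25%. Ranked by H3K27me3 replicate 1, it went from 0.239% to 0.205% for the H3K27ac list of replicate 1. For that of replicate 2 it went from 0.363% to 0.234%. Ranked by H3K27me3 replicate 2, these values were 0.235% and 0.191%, and 0.353% and 0.229%. They rest on few regions, 84 with H3K27ac in replicate 1 and 120 in replicate 2.

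H3K4me1, found at enhancers and around promoters, gave no consistent difference. It was called at 0.805% of double-marked and 0.534% of H3K9me3-only intervals in replicate 1 (1.02% of all H3K9me3 intervals) and at 1.32% and 1.33% in replicate 2 (2.00% of all). It was called in both lists at 184 double-marked regions, 0.449%, against 0.424% of H3K9me3-only and 0.809% of all H3K9me3 intervals. H3K27me3-only intervals had 2.28% and 3.596%.

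BRD2, a BET protein that reads acetylated histone tails, was called slightly more often on double-marked regions. In replicate 1 it was at 1088 regions, 2.65% (95% Wilson interval 2.50% to 2.81%), against 1.59% of H3K9me3-only and 2.04% of all H3K9me3 intervals. In replicate 2 it was at 597 regions, 1.46% (1.34% to 1.58%), against 0.880% and 1.19%. The ratio to H3K9me3-only was 1.67 and 1.65, and the ratio to H3K27me3-only was 1.84 and 1.71. Within classes of equal width, the lead over H3K9me3-only was 0.425 percentage points in the mean of both libraries, against 0.821 without that adjustment. The BRD2 lists hold many weak calls, 64.7% and 28.1% of peaks having a q above 0.05. Of the BRD2 peaks on double-marked regions, 34 of 1158 in replicate 1 (2.94%) and 62 of 644 in replicate 2 (9.63%) reached a −log10 q of 5. Over the whole BRD2 lists this share was 8.39% and 27.3%, and on H3K9me3-only intervals 1.28% and 8.76%. Few regions had BRD2 in both lists: 94, or 0.229%, against 0.120% of H3K9me3-only and 0.187% of all H3K9me3 intervals. Of the regions with BRD2 in replicate 1, 8.64% had it in replicate 2, and 60 of the 94 had none of the other targets in both lists. The BRD2 share was higher where H3K9me3 was stronger, as were those of most other targets. Ranked by H3K9me3 −log10 q in replicate 1, BRD2 replicate 1 was at 1.71% of the weakest 25% and 4.65% of the strongest 25% of the double-marked regions, and BRD2 replicate 2 at 0.810% and 2.74%. In the lists of replicate 1, H3K27ac went from 0.0683% to 0.536% and H4K5acK8ac from 0.146% to 1.09% in the same ranking. H3K4me1 of replicate 2 was an exception, with 1.39% and 1.47% by H3K9me3 replicate 1 and 1.46% and 1.28% by replicate 2. Here too width was not held equal.

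Full promoter-like combinations were rare. H3K27ac, H3K4me3 and BRD2 were all called in both lists at 13 double-marked regions (0.0317%), against 20 H3K9me3-only intervals (0.0227%) and 0.0301% of all H3K9me3 intervals. The 5 with the strongest H3K27ac lay at chr1:111504780-111506184, chr1:161408340-161409842, chr5:76324223-76325737, chr5:150283742-150284566 and chr20:16709671-16710270. The first had peaks in all 16 lists, with an H3K4me3 fold of 55.3 and 60.4 and an H3K27ac fold of 37.4 and 32.3, but an H3K9me3 fold of 3.30 and 3.28 and an H3K27me3 fold of 2.19 and 2.83. At the last, H3K4me3 reached a fold of 102 and 111, BRD2 7.93 and 18.6, H3K9me3 4.59 and 5.18, and H3K27me3 4.20 and 4.20. In these 5 regions H3K27me3 covered 71 to 363 bp of 600 to 1515 bp, so it reached only part of each.

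In the median, double-marked regions lay nearer to H3K4me3, BRD2 and H3K27ac than H3K9me3-only intervals did. The median distance to the nearest H3K4me3 region called in both lists was 89.3 kb for double-marked, 152 kb for H3K9me3-only and 112 kb for H3K27me3-only intervals. To BRD2 it was 229, 358 and 297 kb, and to H3K27ac 123, 183 and 192 kb. The 25th percentile for H3K27ac went the other way, with 44.1 kb for double-marked and 29.8 kb for H3K9me3-only intervals. These distances are over all bins. The 48 bins with 400 or more H3K9me3 intervals held 21001 of the 88279 H3K9me3-only intervals and 1427 of the 41006 double-marked regions. The part of this density in the distances was not tested. H3K36me3 took part in the choice of all 3 classes, so its distances are only described: the medians were 236, 420 and 298 kb, and the 25th percentile was 88.9 kb for double-marked and 83.6 kb for H3K9me3-only intervals.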

How the data were processed

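Peaks were called with MACS2 after alignment with BWA to hg19, per the submitters' processing notes, which name no version, setting or control. The deposited lists give a fold enrichment (a ratio to local background), −log10 p and −log10 q, a summit offset in bp, and a score that was not used; replicates were not pooled as far as stated. Peaks on chromosomes 1 to 22, X and Y were used. Replicate lists were intersected, and overlap meant at least 1 bp. Coordinates are 1-based. The second H3K9me3 library carries another number in its description than in its title, and the title was followed. The regions, comparisons and alternatives were chosen with earlier results of these data known. Regions were named by the best worst rank in the 4 repressive lists, by width, by the number per 1 Mb bin, and by H3K27ac strength among those with H3K27ac, H3K4me3 and BRD2 in both lists. Python 3.11.15, numpy 2.4.6, scipy 1.17.1, pandas 2.3.3 and matplotlib 3.10.9 were used, and the functions were tested on simulated data.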

Additional observations from a re-analysis of the deposited data

How the results depend on the processing

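The alternatives on H3K9me3 density were chosen after seeing the data. The double-marked share of 24.2% was 18.3% with at least 50% of the interval covered, 14.7% at a −log10 q of at least 5, 17.3% with the 50000 strongest repressive peaks and 31.3% after merging across 1000 bp. The width ratio of 1.37 became 1.25, 1.31, 1.26 and 2.39 in that order, 1.32 for intervals of at least 200 bp and 1.30 with whole H3K9me3 peaks. The overdispersion of double-marked over H3K9me3-only intervals, 0.314, was 0.412 with a broader H3K9me3-only class, 0.514 after merging and 0.487 in 100 kb bins. Leaving out either replicate gave shares of 30.04% to 32.7%, width ratios of 1.24 to 1.31 and overdispersion ratios of 0.504 to 0.627. In these settings peaks of 1 list replace shared parts. The replicate block (lists of equal number) is the mean of these settings, 31.4%, 1.275 and 0.566, and no separate fit. No test was made for any of them. Targets less and more frequent in every library numbered 4 and 3, but 2 and 6 for repressive peaks of a −log10 q of at least 5 and also for the 50000 strongest, 5 and 2 for active peaks of a −log10 q of at least 5, and 6 and 2 with the 10000 strongest active peaks. With the stronger repressive peaks H4K5ac turned to 0.0772 and 0.146 and H4K8ac to 0.594 and 0.737 percentage points. H4K12ac turned to -0.0369 with the 10000 strongest active peaks. Over all overlapping peak pairs the summit distance was 250.25 bp. The causes were not tested. Within H3K9me3 density classes the difference, double-marked minus H3K9me3-only, was -2.90 percentage points for H3K27ac and 1.19 for H4K12ac, against -2.00 and 1.53 without classes. Depth is unknown.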

Other observations

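Double-marked regions followed one another along the chromosome. Of the H3K9me3 intervals next after a double-marked region, 62.7% were double-marked too, against 8.05% of those next after an H3K9me3-only interval. The double-marked share over all H3K9me3 intervals was 24.2%. Succession within a class was not particular to these regions. Next after an H3K9me3-only interval, 75.7% were H3K9me3-only, against 52.1% of all H3K9me3 intervals. The median gap to the nearest region of the same class was 0.831 kb for double-marked and 0.550 kb for H3K9me3-only intervals. Runs without another class in between were 2.68 intervals long in the mean for double-marked and 4.12 for H3K9me3-only intervals, and 21.7% and 45.9% of the intervals stood in runs of 10 or more. The longest double-marked run held 59 regions over 427 kb at chr20:41625752-42052266. It was followed by 57 regions over 381 kb at chr5:44472624-44853484 and 56 regions over 1055 kb at chr2:50233972-51289427. The longest H3K9me3-only run held 366 intervals over 734 kb at chr16:78194061-78927688.

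Counted by autosome, the direction was shared by most autosomes for some targets and not for others. H4K12ac was more frequent on double-marked than on H3K9me3-only intervals on 18 of 22 autosomes in replicate 1 and on 20 in replicate 2, H3K4me3 on 19 in both, and BRD2 on 19 and 18. H4K5acK8ac was less frequent on 21 in both, and H4K5ac on 20 and 19. H4K8ac was less frequent on 16 and 14 autosomes. H3K4me1 was more frequent on 16 in replicate 1 but on 9 in replicate 2. Autosomes share the same libraries, so these counts are a description.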
